A study of Nothobranchius furzeri with 8 samples.

Results

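In whole brains of the turquoise killifish (*Nothobranchius furzeri*), 96 of the 26739 annotated genes were weakly expressed in captive fish and far lower still in every wild fish. They were picked from the deposited RPM values (the read counts of a gene scaled to the total of its library) as the genes with a mean over the captive fish of at least 1 and under 15 RPM whose lowest captive value exceeded 5 times the highest wild value. The comparison is between 4 wild males of population A41, aged 39 days post hatching (dph), and 4 captive males of strain MZM-0410, aged 35 dph per the sample labels, with 1 library per fish. No fish was treated or genetically altered, and MZM-0410 is a laboratory strain derived from wild fish, so that genetic background, rearing and age differ between the groups together. The wild brains were kept in RNAlater before freezing while captive brains went straight onto dry ice, and RNA integrity was listed lower for every wild fish, so that storage and RNA integrity cannot be told apart from origin.

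Since the wild and captive values chose the members, their difference between the groups is described here without a test. Values per fish are given in the order A41_A_3m, A41_A_5m, A41_A_7m and A41_A_11m for wild fish and MZM_0410_124, MZM_0410_125, MZM_0410_126 and MZM_0410_127 for captive fish. All 8 libraries were close in depth, with 13923243 to 14541119 counts in wild fish and 11814586 to 14393377 counts in captive fish. Markers of the cell types of the brain were measured in both groups. The 20 genes for mature neurons summed to between 8298 and 8805 RPM in wild fish and between 8820 and 9532 RPM in captive fish. The 8 genes for radial glia and astrocytes summed to between 5436 and 7333 RPM in wild fish and between 3984 and 5315 RPM in captive fish, and the 9 for oligodendrocytes to between 4895 and 7749 RPM in wild fish and between 7336 and 11200 RPM in captive fish. In the radial glia list 5 genes were higher and 2 lower in wild fish, and *S100B* made up most of the sum (3957 RPM in wild fish and 2180 RPM in captive fish), while *SLC1A2* (187.5 RPM in wild fish and 866 RPM in captive fish) and *GJA1* (209 RPM in wild fish and 411 RPM in captive fish) went the other way. The 8 erythrocyte genes, of which 1 was higher and 5 were lower in wild fish, summed to between 181 and 218 RPM in wild fish and between 243 and 295 RPM in captive fish. Sums for neurons, radial glia and erythrocytes did not overlap between the groups, and those for oligodendrocytes did. A lack of overlap was not particular to cell types. Sums of the ion channel list also did not overlap (6784 to 7485 RPM in wild fish and 8626 to 9360 RPM in captive fish). Those of the DNA repair and replication list did (3995 to 4242 RPM in wild fish and 3885 to 4068 RPM in captive fish). How often sums overlap over all lists was not counted. Of the neuron genes 6 were higher and 7 lower in wild fish, and of the oligodendrocyte genes 2 were higher and 3 lower. Higher and lower here mean an adjusted p under 0.05 in edgeR's test of single genes. Over all 19517 genes tested, 19.8% were higher and 21.8% lower in wild fish. The lists hold only genes with a name, so these shares are no like background for them. The other 6 cell type lists held 0 to 5 named genes each and none of the members. The pituitary list held 1 gene, *GH1*, which varied widely within both groups (0.417 to 3222 RPM in wild fish and 0.723 to 837 RPM in captive fish). Whether the amount of pituitary in the samples differed was not tested. The lists were matched by name, so only the 8 members with a name could be found as markers, and none was. Whether unnamed members are markers is not known. Names come from results that left out genes without a count in every sample, so no marker could well be at 0. The part of cell composition in the members' difference was not tested. In whole brain RNA, fewer cells of a type and less RNA per cell cannot be told apart.

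Only 8 of the 96 members (8.33%) have a gene name in the tables used here, against 1480 of the 7311 other genes with the same range of captive means (20.2%). Among the 99 genes with the same separation at 15 RPM or more, 39 have a name (39.4%). Names come from the study's published results, which include its own comparisons of wild with captive fish. For its results the study dropped genes without a count in every sample. Of the members, 26 had 0 counts in at least 1 wild fish, and the part of this filter in the low share was not tested. The named members fall into 3 groups by what their proteins are known for. *ZBTB16*, *HIC2* and *ESRRG* encode DNA-binding proteins of the nucleus. BTB zinc finger proteins such as ZBTB16 (also PLZF) and HIC2 bind DNA through their zinc fingers, and ZBTB16 recruits corepressors through its BTB domain. ESRRG is an orphan nuclear receptor that switches on genes of oxidative metabolism. *CCSER2*, *NAV1* and *DMD* encode proteins of the cytoskeleton. In mammals NAV1 follows the growing ends of microtubules in the growth cone, CCSER2 binds microtubules, and dystrophin, the product of *DMD*, ties the actin cytoskeleton to the extracellular matrix through dystroglycan. *PLPPR3* and *ABCA7* encode membrane proteins that deal with lipids. PLPPR3 belongs to a family of neuronal membrane proteins related to lipid phosphatases, and ABCA7 is an ABC transporter that moves phospholipids across membranes.

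The repressor gene *ZBTB16* (Nfu_g_1_022092) had 1.01, 1.49, 0.894 and 1.32 RPM in the wild fish and 8.29, 10.6, 13.0 and 13.5 RPM in the captive fish. Its mean was 1.18 ± 0.277 RPM in wild fish and 11.3 ± 2.40 RPM in captive fish (SD, n = 4 each). The wild fish lay close together, and MZM_0410_124 was the lowest of the captive fish. *HIC2* (Nfu_g_1_007410), which the tables also list under the symbol HIC1L, had 0.718, 0.783, 0.619 and 0.764 RPM in the wild fish and 8.97, 7.64, 6.83 and 7.43 RPM in the captive fish. Here MZM_0410_124 was the highest captive fish, and the SD among the wild fish was 0.0731 RPM. The nuclear receptor gene *ESRRG* (Nfu_g_1_002069, symbol ESRRGA) had 0.862, 0.712, 0.550 and 0.625 RPM in the wild fish and 7.96, 9.14, 6.83 and 7.30 RPM in the captive fish. Over the pooled counts these 3 genes were 9.72-fold, 10.7-fold and 11.4-fold lower in wild fish, in the order in which they are given here.

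Among the cytoskeletal genes *CCSER2* (Nfu_g_1_000776) had the highest captive mean of all members. It had 0.718, 1.07, 0.619 and 0.555 RPM in the wild fish and 12.3, 17.2, 12.4 and 17.6 RPM in the captive fish. The captive fish fell into a lower pair, MZM_0410_124 and MZM_0410_126, and a higher pair, MZM_0410_125 and MZM_0410_127, which the wild fish did not approach. *DMD* (Nfu_g_1_015684) had 0.503, 0.285, 0.138 and 0.625 RPM in the wild fish and 10.1, 11.9, 10.4 and 8.82 RPM in the captive fish. Its wild values rest on 22 counts over 4 libraries and its captive values on 534 counts, which gives a pooled level 26.6-fold lower in wild fish, with a 95% counting interval of 17.4 to 42.8. *NAV1* (Nfu_g_1_010440) had 0.287, 0.213, 0.550 and 0.555 RPM in the wild fish and 5.25, 6.52, 4.50 and 5.90 RPM in the captive fish. The wild fish formed 2 pairs that differed by a few counts.

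Of the membrane lipid genes, *PLPPR3* (Nfu_g_1_015097) had 0.0718, 0.0712, 0.344 and 0.278 RPM in the wild fish and 6.86, 8.54, 6.75 and 8.20 RPM in the captive fish. With 11 wild and 397 captive counts it had the lowest wild level relative to captive of the 8 named members, 2.52%, and its pooled level was 39.5-fold lower in wild fish (95% counting interval 21.8 to 79.8). *ABCA7* (Nfu_g_1_002316, the first of 2 copies by its symbol) had 0.359, 0.640, 0.688 and 0.417 RPM in the wild fish and 5.33, 8.47, 6.11 and 7.02 RPM in the captive fish. These intervals treat the pooled reads as independent counts and leave out the spread between fish. The rule fixed in advance that every member is lower in wild fish. Folds and intervals of members are therefore not free of the choice and test nothing. Reads from amplified libraries are not independent molecules, so the intervals may also be too narrow for counting error. Per length, the 8 named members ranged in captive fish from 1.65 RPKM (RPM per kilobase of transcript) for *NAV1* and 1.71 RPKM for *ABCA7* to 5.66 RPKM for *PLPPR3* and 5.69 RPKM for *ZBTB16*.

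**Figure D1:**
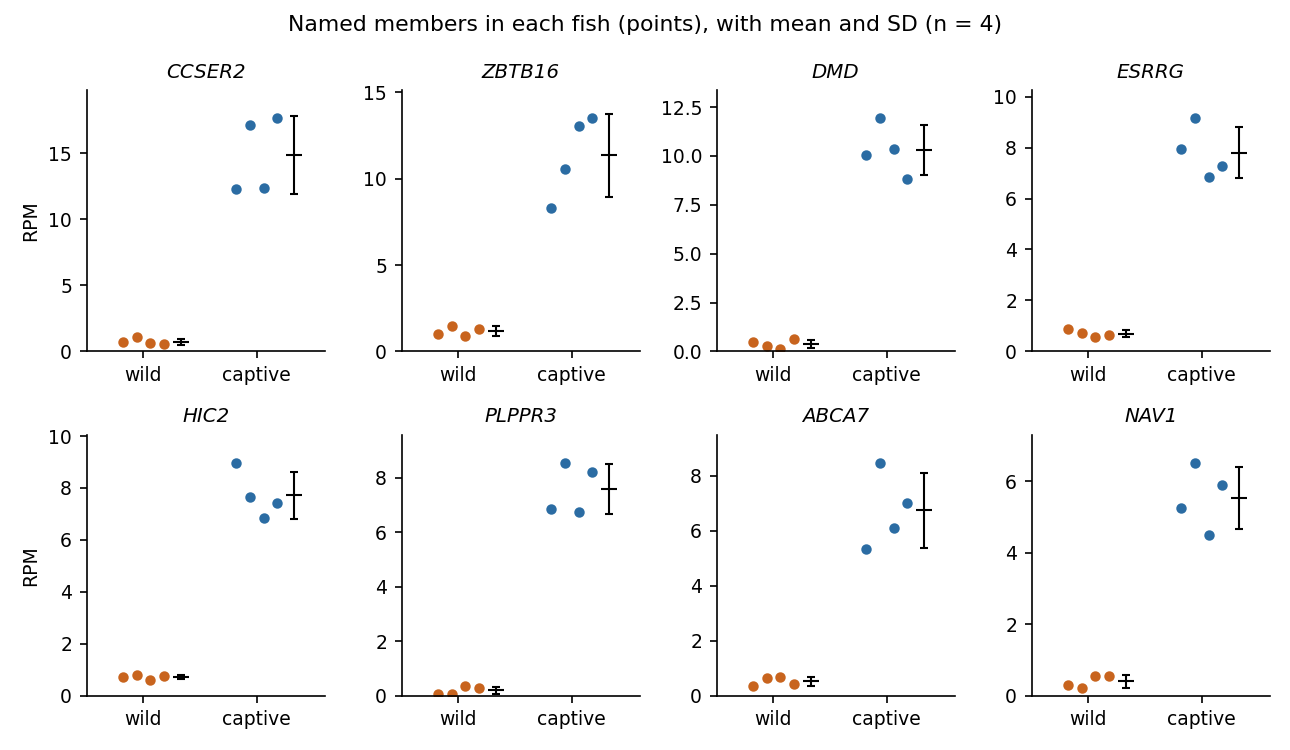
RPM of the 8 named members in each fish (points; wild left, captive right), with mean and SD (n = 4 each) beside the points; the axes start at 0 and differ in scale. For *CCSER2* the wild fish lie between 0.555 and 1.07 RPM and the captive fish between 12.3 and 17.6 RPM.

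The other 88 members have no name here and can be described only by identifier, length and level. The unnamed member with the highest captive mean, Nfu_g_1_005515, had 1.87, 2.28, 2.06 and 2.57 RPM in the wild fish and 14.3, 14.9, 13.3 and 15.6 RPM in the captive fish. Its wild level was 15.1% of its captive level, the highest share of any member, and its captive fish differed little. The next, Nfu_g_1_001579, had 1.58, 1.07, 0.756 and 1.25 RPM in wild fish and 11, 17.8, 11.5 and 16.2 RPM in captive fish, with the same lower and higher captive pairs as *CCSER2*. At the other end, and singled out after its values were seen, Nfu_g_1_024752 had 0, 0.142, 0.138 and 0.0694 RPM in wild fish against 13.5, 15.4, 12.2 and 13.8 RPM in captive fish. It had 5 wild and 716 captive counts, and its lowest captive value was 85.9 times its highest wild value, the largest such ratio among the 94 members with any wild count.

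Most members were low in wild fish rather than absent. Over all 96, the wild mean had a median of 0.334 RPM, a lowest value of 0 and a highest of 2.19 RPM, and the captive mean a median of 5.87 RPM (1.14 to 14.9). The wild level was a median of 5.67% of the captive level (quartiles 3.32 and 8.03%), where the 7311 other genes of the same captive range had a median of 106%. The median member had 19 counts over the 4 wild libraries and 309 over the 4 captive libraries. At least 1 count was found in each of the 8 libraries for 70 of the 96 members, while 26 had 0 counts in at least 1 wild fish.

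Only 2 members, Nfu_g_1_016273 and Nfu_g_1_021404, had 0 counts in every wild fish. Each had 65 counts over the captive fish, with captive means of 1.24 and 1.23 RPM. Set against a floor of 3 counts over the 4 wild libraries, which a count of 0 still allows, their level came out 23.7-fold lower in wild fish. This figure takes the captive counts as exact and leaves out the spread between fish, so it is no guaranteed minimum. A further 13 members had 1 to 3 wild counts in all. Among these Nfu_g_1_013873, with 1 wild and 196 captive counts, was 215-fold lower in wild fish, with a 95% counting interval of 38.1 to 8518. Its fold is known only to within wide limits, and this interval too is not free of the choice of members.

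**Figure D2:**
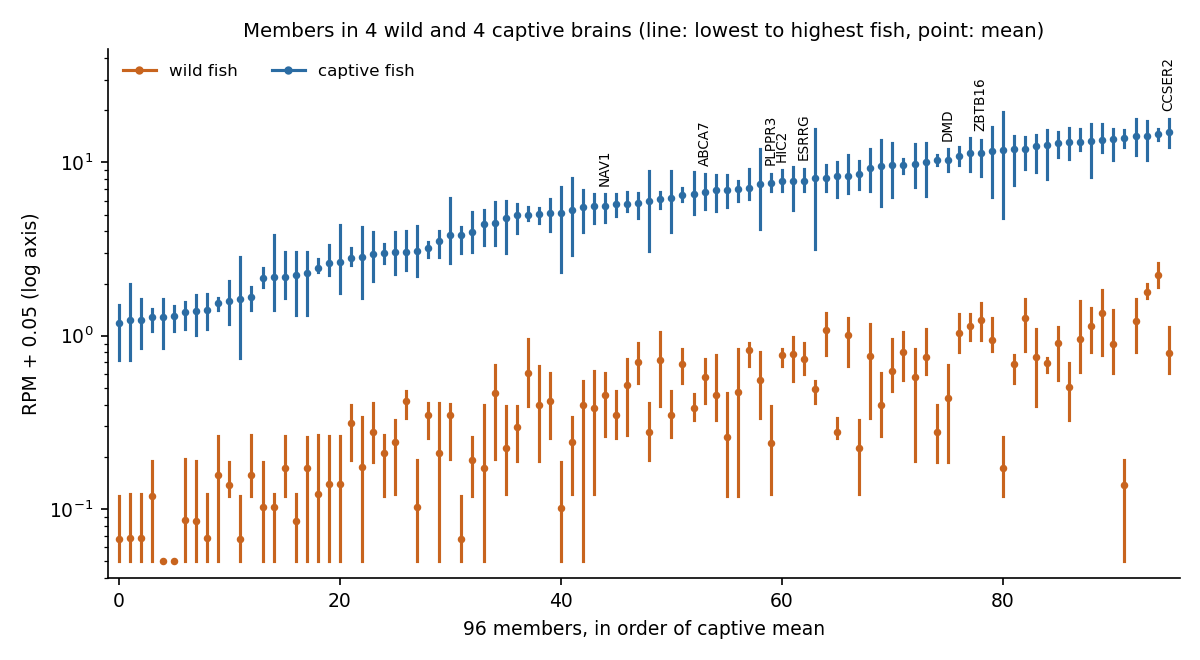
The 96 members in order of captive mean along the horizontal axis, with RPM + 0.05 on a log axis; lines join the lowest to the highest of 4 fish and points mark the mean, for wild and captive fish. Captive means run from 1.14 to 14.9 RPM and wild means from 0 to 2.19 RPM, and the 2 members at the bottom of the axis had 0 counts in every wild fish.

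The members were few beside the genes of their level, and the opposite pattern was rarer. They made up 96 of the 7407 genes with a captive mean of 1 to 15 RPM (1.3%). The same rule with the groups exchanged held for 2 of the 7379 genes with a wild mean in that range (0.0271%). These were Nfu_g_1_010567, with means of 5.16 RPM in wild fish and 0.487 RPM in captive fish, and Nfu_g_1_012470, with 5.62 RPM in wild fish and 0.570 RPM in captive fish. Outside the range, the same separation held for 99 genes with a captive mean of at least 15 RPM and for 29 below 1 RPM, against 1 and 15 genes for the exchanged rule. The asymmetry was smaller when means alone were used. The wild mean was under 0.2 of the captive mean in 293 of the 7407 genes (3.96%), and the captive mean was under 0.2 of the wild mean in 64 of the 7379 genes (0.867%).

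**Figure D3:**
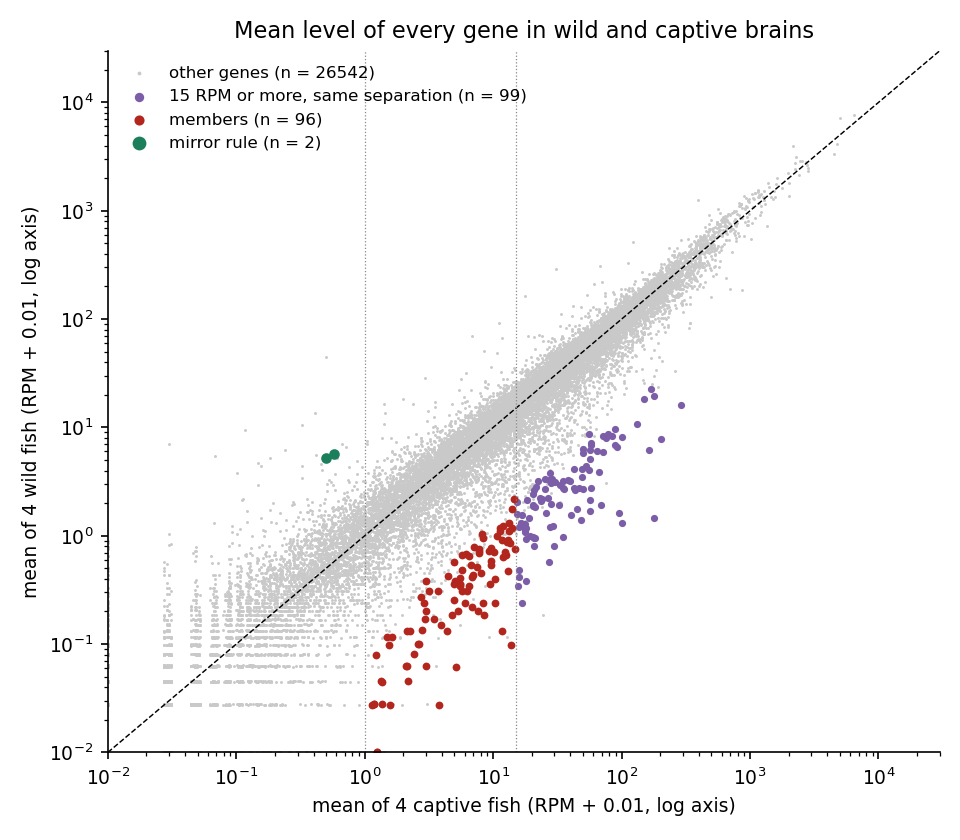
Mean RPM + 0.01 of every gene in wild fish (vertical) and captive fish (horizontal), both on log axes, with members, stronger genes of the same separation and genes of the exchanged rule coloured; dotted lines mark captive means of 1 and 15 RPM and the dashed line equal levels. The 96 members lie well below the dashed line between the dotted lines and run on into the 99 stronger genes, and 2 genes lie on the opposite side.

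The bounds of the rule cut through a continuum. At the upper bound, *CCSER2* (captive mean 14.9 RPM) and Nfu_g_1_005515 (14.6 RPM) were just inside, while *LRBA* and Nfu_g_1_019041, both at 15.3 RPM with ratios of the lowest captive to the highest wild value of 5.49 and 5.27, were just outside. At the lower bound, Nfu_g_1_013643 (1.14 RPM) and Nfu_g_1_014570 (1.18 RPM) were inside and Nfu_g_1_014345 (0.895 RPM) and Nfu_g_1_023228 (0.889 RPM) outside. By the ratio, Nfu_g_1_018043 (5.07) and Nfu_g_1_018347 (5.13) were inside and Nfu_g_1_010898 and Nfu_g_1_005278 (4.88 each) outside. With 0.5 RPM added to every value before the ratio was taken, 30 of the 96 genes remained.

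The transcripts of members were short beside those of the stronger genes with the same separation. Their median length was 1532 nt (quartiles 892 and 2869 nt, range 171 to 6377 nt), against 1951 nt for other genes of the same captive range and 3528 nt for the 99 stronger genes. Of the 96 members 28 were under 1000 nt (29.2%), against 24.7% of the other genes of the range and 3 of the 99 stronger genes. Within the members, length went with level. The 27 members with a captive mean of 1 to 3 RPM had a median length of 750 nt, and the 23 with 10 to 15 RPM one of 2046 nt. The wild level as a share of the captive level was a median of 3.41% in the weakest group and 6.94% in the strongest. The rule uses the lowest captive and the highest wild value, which counting noise moves most at low levels. These shares are therefore not free of the choice of members. RPM is not divided by length, so that at 1 concentration a shorter transcript has fewer reads, and per length the members had a median captive level of 3.40 RPKM, against 2.66 RPKM in the other genes of the range. Genes are not replicates of each other, and these medians are a description.

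Captive fish did not hold the members at 1 common level. Summed over the 96 members, the wild fish had 41.1, 43.0, 38.5 and 44.4 RPM, and the captive fish had 507, 740, 600.1 and 679.6 RPM. The wild fish were within a narrow band, while MZM_0410_124 was low and MZM_0410_125 high among the captive fish. MZM_0410_124 had the lowest captive value in 60 of the 96 members (62.5%), where it was lowest in 27.1% of the 7311 other genes of the range, and MZM_0410_125 had the highest value in 53 members. The rule itself uses the lowest captive value, so that this count is not free of the choice of members. MZM_0410_124 also had the smallest captive library, with 11814586 counts, and the part of depth was not tested. The order was not the same for every member, as *HIC2* was highest in MZM_0410_124.

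The same order of the captive fish was present in the stronger genes and not in other genes of the members' level. The stronger genes were chosen by the same separation on these same values. Other genes of the level were not chosen for a higher captive value, so neither set tests the order independently. The median member was 0.26 below the mean of the captive fish on the log2 scale in MZM_0410_124 (log2 difference -0.26), 0.23 above it in MZM_0410_125, at -0.09 in MZM_0410_126 and at 0.11 in MZM_0410_127. In the 99 stronger genes the medians were -0.33, 0.25, -0.05 and 0.14 in the same fish, and in the 7311 other genes they were all within 0.013 of 0. MZM_0410_124 was lowest in 83 of the 99 stronger genes. Leaving out any 1 fish loosens the rule, which held for 117 genes without MZM_0410_124 and for 117 without A41_A_11m.

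**Figure D4:**
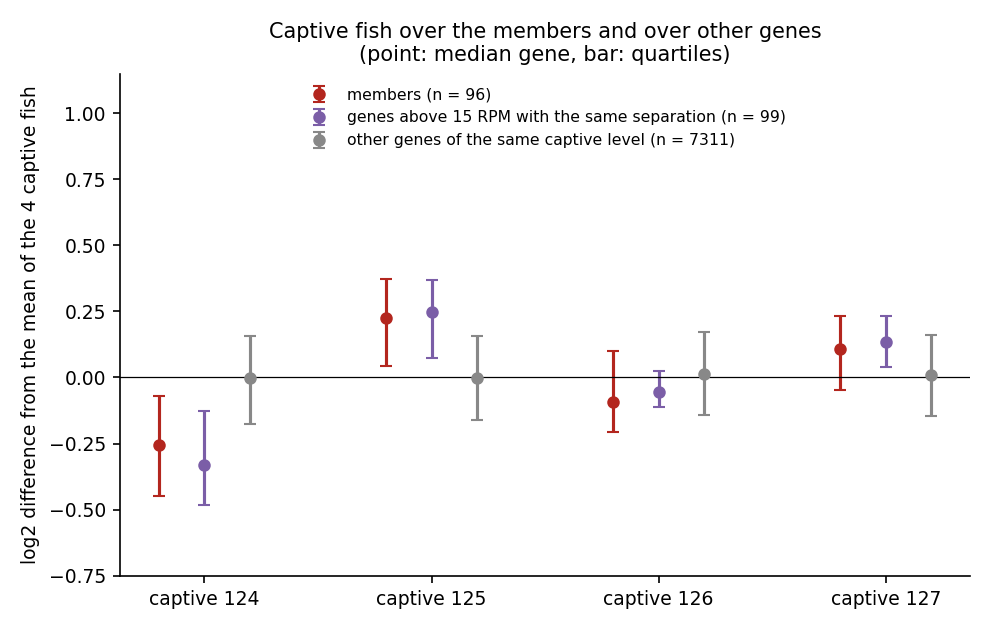
Log2 difference of each captive fish from the mean of the 4 captive fish, as the median gene (points) with quartiles (bars), for the 96 members, the 99 stronger genes of the same separation and the 7311 other genes of the members' captive level. MZM_0410_124 is at -0.26 over members and MZM_0410_125 at 0.23, while the other genes are close to 0 in every fish.

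The rule uses the lowest captive value, so that the spread among captive fish is given as a description. The coefficient of variation had a median of 20.4% in members and 16.9% in the other genes of the range. The highest captive fish was over 2 times the lowest in 21 of 96 members (21.9%) and in 19.5% of the other genes. It was over 3 times the lowest in 4 members (4.17%) and in 524 of the 7311 other genes (7.17%). These 4 members were picked out for this spread. The widest, Nfu_g_1_006277, had 0.359, 0.498, 0.413 and 0.486 RPM in the wild fish and 3.13, 15.6, 7.64 and 5.98 RPM in the captive fish. Nfu_g_1_020353 had between 0.0688 and 0.208 RPM in wild fish and 4.74, 19.6, 8.28 and 14.3 RPM in the captive fish. In both of them MZM_0410_125 was highest and MZM_0410_124 lowest. Nfu_g_1_002488 had the same order of the lowest and highest captive fish at 2.29 to 7.19 RPM, whereas Nfu_g_1_007507 was highest in MZM_0410_124, at 2.79 RPM, and lowest in MZM_0410_127, at 0.695 RPM.

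*CCSER2*, *ZBTB16* and *NAV1* each have further genes of the same name that the rule did not choose, 4 in all, and these could be tested. Among 19517 genes that had a count of 1 or more in all libraries, 8115 (41.6%) differed between wild and captive fish at an adjusted p under 0.05 in edgeR's quasi-likelihood test with Benjamini-Hochberg adjustment, 3864 (19.8%) higher and 4251 (21.8%) lower in wild fish. The split moved with scaling, from 47.6% higher among the differing genes with TMM to 57.1% with upper quartile factors (5046 higher and 3788 lower). Of the 4 further genes, 3 were lower in wild fish and 1 did not pass. These 4 have names only through the study's published results, so the shares over all genes are no like background for them. None had a positive fold change, and DESeq2 gave 3 lower and 0 higher in wild fish.

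The strongest difference was that of a second *NAV1* gene, Nfu_g_1_021265. It had 18.6, 22.3, 23.1 and 27.6 RPM in the wild fish and 75.2, 131, 109 and 120 RPM in the captive fish, and its log2 fold change was -2.28 with an SE of 0.18 (adjusted p = 7.6e-06, edgeR). MZM_0410_124 was again the lowest captive fish, and the groups did not overlap. The third *NAV1* gene, Nfu_g_1_010328, had the smallest log2 fold change of the 3 that passed, with 134.2 ± 6.43 RPM in wild fish and 176 ± 9.08 RPM in captive fish (log2 fold change -0.42, SE 0.06, adjusted p = 0.00037, edgeR). The second *ZBTB16* gene, Nfu_g_1_000574, had 20.9 ± 4.34 RPM in wild fish and 34.2 ± 7.21 RPM in captive fish (log2 fold change -0.74, SE 0.17, adjusted p = 0.0069, edgeR). Without MZM_0410_124 and MZM_0410_125 together, an alternative chosen after seeing the data, 3 of the 4 genes were lower again.

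The second *CCSER2* gene, Nfu_g_1_002905, differed from the member in that its levels overlapped between the groups. It had 9.48, 4.62, 5.84 and 5.42 RPM in the wild fish and 6.09, 7.12, 8.44 and 7.64 RPM in the captive fish (log2 fold change -0.24, SE 0.22, adjusted p = 0.41, edgeR). A41_A_3m was above every captive fish, and without it the gene passed the test (log2 fold change -0.49, adjusted p = 0.045). The 2 *CCSER2* genes together had 7.08 ± 2.1 RPM in wild fish and 22.2 ± 3.19 RPM in captive fish, and the member made up 10.4% of that sum in wild fish and 67.0% in captive fish. The member made up 5.34% of the *ZBTB16* sum in wild fish and 24.9% in captive fish, and 0.255% of the *NAV1* sum in wild fish and 1.91% in captive fish. The member was shorter than its namesakes for *ZBTB16* (1992 against 4545 nt) and *NAV1* (3351 against 8686 and 5583 nt). The 2 *CCSER2* genes were alike in length (5864 nt for the member and 5802 nt). Shares of summed RPM depend on length, and whether the shorter entries are whole genes was not tested. Each read was allowed 1 place in the genome, so that reads from near-identical stretches of such copies may be counted on either gene.

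**Figure D5:**
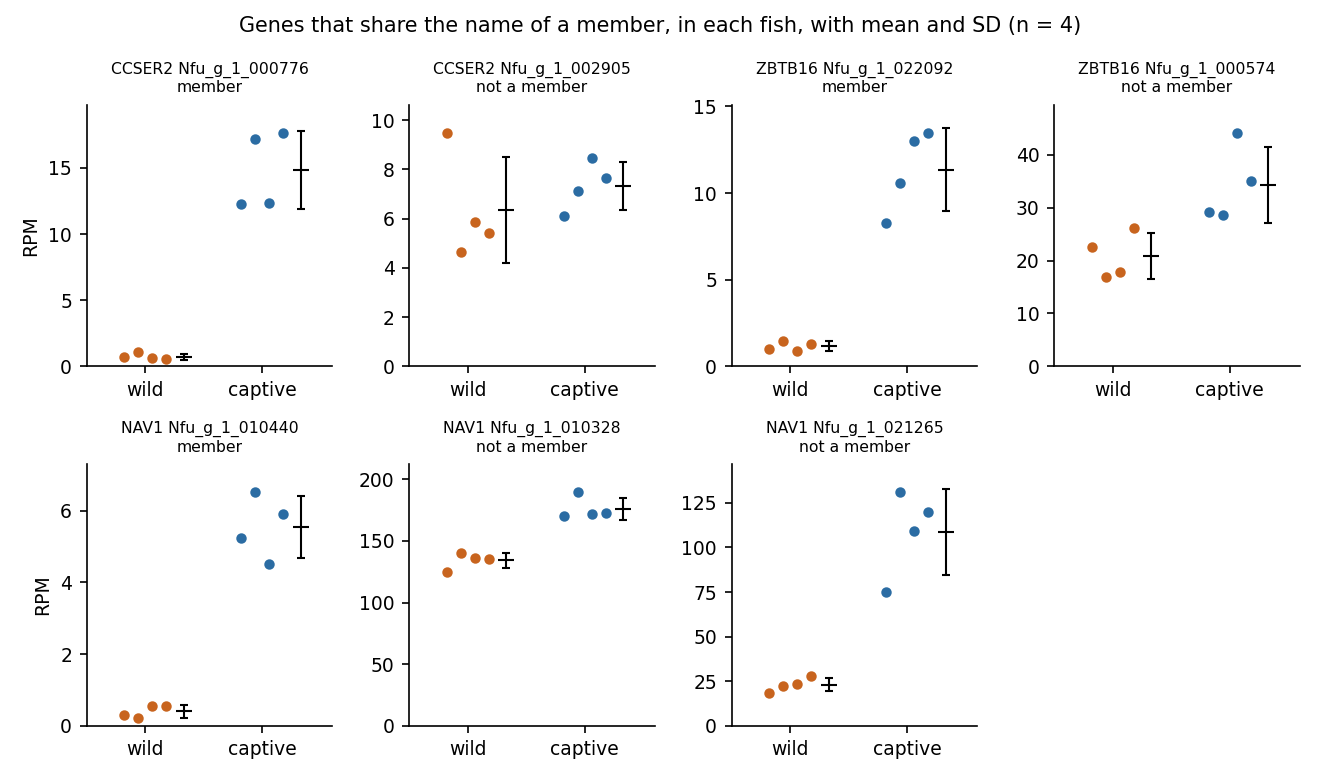
RPM in each fish (points; wild left, captive right) with mean and SD (n = 4 each) for the members *CCSER2*, *ZBTB16* and *NAV1* and the 4 further genes of the same names; the axes start at 0 and differ in scale. The *CCSER2* gene that is no member overlaps between the groups, and the other 3 further genes are lower in wild fish.

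The genes around the named members in their pathways were taken from 6 family lists, which were written once the members' names were known. Over all genes tested, 19.8% were higher and 21.8% lower in wild fish. Lists hold only genes named in the study's published results, which are no random sample of the genes tested. The shares over all genes are therefore not a like background for the lists. In the complex that anchors dystrophin, 8 genes other than *DMD* were tested, of which 1 rose, 4 fell and 3 did not pass. *DRP2*, a dystrophin-related protein known from myelin of mammalian nerves, had 10.2 ± 0.581 RPM in wild fish and 27.4 ± 3.04 RPM in captive fish (log2 fold change -1.46, SE 0.10). *DTNB*, a dystrobrevin, fell by 0.55 on the log2 scale and *DAG1* (Nfu_g_1_021010), a gene for dystroglycan, by 0.27. A second *DAG1* gene did not pass (log2 fold change -0.13) but did with DESeq2 (adjusted p = 0.041). *SGCZ*, a sarcoglycan, fell by 0.27 but lost the call with upper quartile factors and without each of 5 fish in turn (adjusted p = 0.050 to 0.083 without A41_A_5m, A41_A_7m, MZM_0410_124, MZM_0410_125 or MZM_0410_126, edgeR), and *SGCE*, another sarcoglycan, rose by 0.32.

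In the other families the differences were mostly of this smaller size, with a few exceptions. The list named after BTB zinc fingers, matched on symbols, held 22 tested genes of which 5 rose, 10 fell and 7 did not pass. It includes *ZBTB8OS* (higher) and *KBTBD8* (lower), which are no zinc finger proteins. *ZBTB47* had 1.61 ± 0.265 RPM in wild fish and 9.37 ± 1.91 RPM in captive fish (log2 fold change -2.56, SE 0.20), and 1 of 2 *ZBTB41* genes had 40.9 ± 3.34 RPM in wild fish and 101 ± 6.53 RPM in captive fish (-1.34, SE 0.07), while the other did not pass (0.08). *BCL6B* rose most, with 62.8 ± 16.6 RPM in wild fish and 30.1 ± 3.76 RPM in captive fish (1.03, SE 0.18). Both *BCL6* genes, *ZBTB18* and *ZBTB20* fell, by 0.34, 0.89, 0.53 and 0.87 on the log2 scale.

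Among the partners of *ESRRG*, its coactivator gene *PPARGC1A* fell by 0.26 and *NRIP1*, a corepressor, by 0.34 on the log2 scale, while the related receptor gene *ESRRB* did not pass (-0.03). *NAV2* fell by 0.35 and *NAV3* did not pass (-0.09). Among 7 genes grouped with *PLPPR3*, 3 fell and 4 did not pass. The largest difference was that of *PLPPR4*, which acts at excitatory synapses, with 34.1 ± 5.73 RPM in wild fish and 186 ± 39.8 RPM in captive fish (-2.47, SE 0.17), followed by *PLPPR5* (-0.82) and the phosphatase gene *PLPP4* (-0.35), which did not pass without MZM_0410_124 or MZM_0410_127 (adjusted p = 0.054 and 0.058, edgeR). *PLPPR1* (0.13), the phosphatase genes *PLPP1* and *PLPP6* and the receptor gene *LPAR4* did not pass. All 3 further A-class ABC transporters fell, the cholesterol exporter *ABCA1* by 0.62, *ABCA3* by 0.66 and *ABCA9* by 0.41 on the log2 scale. Both of the broader lists named next hold members as well. Of 317 other transcription factors tested, 88 rose and 128 fell (median log2 fold change -0.11), and of 190 other solute carriers and pumps, 22 rose and 103 fell (median -0.37), beside a median of 0.04 over all genes tested. Over all 18 pathway lists, 2838 named genes other than members were tested, of which 764 rose and 1228 fell. These named genes differed more often than all genes tested (41.6%). Their names come from the study's published results, which include its own comparisons of wild with captive fish. The higher share may therefore follow from how genes came to be named, and it is no result about the lists.

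No run of members with consecutive identifiers was longer than 2. The numbering of the identifiers partly follows the genome, since 487 of 566 pairs of named genes numbered 1 apart (86.0%) are on the same chromosome of the RefSeq assembly NfurGRZ-RIMD1, against 26 of 488 pairs numbered 1000 apart (5.33%). That assembly is another build than the one used for mapping, and only 28.1% of the adjacent pairs are within 10 genes of each other, so that an adjacent number does not always mean an adjacent gene. There were 2 pairs of members with consecutive numbers, Nfu_g_1_006712 with Nfu_g_1_006713 and Nfu_g_1_016272 with Nfu_g_1_016273. In the first pair the wild means were 0.859 and 0.738 RPM and the captive means 12.8 and 7.80 RPM. In the second the wild means were 0.0180 and 0 RPM and the captive means 1.36 and 1.24 RPM. Nfu_g_1_016273 of that pair had 0 counts in every wild fish. Members made up 96 of the 26739 genes, and whether 2 such pairs are more than unrelated genes give was not tested. Of the 187 other genes numbered next to a member, 146 were tested, of which 27 rose (18.5%), 38 fell (26%) and 81 did not pass, with a median log2 fold change of 0.02. Of the 187, 2 had the same separation at a level outside the members' range. Over all 26739 genes, 99 had it above that range and 29 below. The shares that rose and fell are near those of all genes tested.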

How the data were processed

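Per the labels and methods, the authors made strand-specific poly(A) libraries, read out base calls by bcl2fastq (2.20.0.422), placed reads on the repeat-masked build Nfu_20150522 by TopHat2 (2.1.0) with 1 hit per read, and assigned them to genes by featureCounts (1.6.5) using strand. The deposited table gives whole counts, RPM and RPKM for each gene and library without pooling. The RPM of the authors match the deposited counts scaled by their column total to within 5e-12, and the ratio of RPM to RPKM gave transcript lengths. Replicate libraries differed beyond sampling noise, with a chi-square per gene of 6.72 to 14.5. P-values measure the spread between these fish, whose relatedness was not modelled here.

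The rule was applied to RPM. Other genes were tested on counts with edgeR 4.0.16 in R 4.3.3 (TMM, quasi-likelihood test, condition only, at least 1 count in every library, adjusted p under 0.05 by Benjamini-Hochberg), and the fit was tested on simulated data. Members, lists and tests were chosen with earlier results of these data known. The 18 pathway lists, 10 cell type lists and 6 family lists were written from general knowledge. Names (7368 genes) came from the supplementary tables. Values per fish are given for named members, and for the 2 unnamed members of highest captive mean, means or ratios for genes at the bounds of the rule, and others are said to have been picked by value. Log2 differences among fish were taken after adding 0.1 RPM. Counting intervals are exact (95%). Alternatives were DESeq2 1.42.0, RLE and upper quartile factors, 2 other filters, thinned counts, 0.5 RPM added and leaving out each fish. Python 3.11.15, pandas 2.3.3 and matplotlib 3.10.9 were used.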

Additional observations from a re-analysis of the deposited data

Results flagged for a closer look

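Fish apart from the other 3 of their group were looked for in 30 groups of 4 values, those of the summed members, the named members, their further genes of the same name and the 2 unnamed members of highest captive mean. One was found, in the *NAV1* gene Nfu_g_1_010328, which is no member. MZM_0410_125 had 189.7 RPM there, and the other captive fish had 170.3 to 172.9 RPM. Chance gives such a gap in about 1 in 20 groups.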

How the results depend on the processing

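The rule held for 95 genes on TMM-scaled and 95 on upper quartile-scaled library sizes, for 94 genes after thinning to the smallest library (90 of them members), for 30 with 0.5 RPM added, and for 100 to 117 when 1 fish was left out. The exchanged rule held for 1 gene with TMM, for 0 with 0.5 RPM added and for 2 to 5 when 1 fish was left out (5 without MZM_0410_126, 4 without A41_A_3m or A41_A_5m). Members with 0 counts in every wild fish numbered 3 to 5 with 1 wild fish left out, which follows from fewer fish, and 3 after thinning. Summed members in wild fish were 6.61% of the captive sum, and 6.20 to 7.01% when 1 fish was left out. Counts of calls over all genes, the lists and the genes of shared name stayed within 1.5 times. In single genes, 583 of the values under an alternative kept direction and call, 8 gained and 28 lost the call (among them *SGCZ*, *ZBTB10*, *ZBTB14* and *ZBTB8OS*), and 6 turned direction without passing in either setting. With upper quartile factors the log2 fold changes of *DTNA* and *ESRRB* became 0.0363 and 0.0308. With 1 fish left out *DTNA* ranged from -0.0969 to 0.0181, *PLPP6* from -0.135 to 0.0321 and *ZBTB11* from -0.0177 to 0.0551. The cause was not tested. Depth limits the fold of 15 members, which had at most 3 counts in the wild libraries. No paired analysis was possible because the wild and captive fish share no number in the labels.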
